A study of Mus musculus with 9 samples.

Results

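The genes described here are the interleukins and interleukin receptors of mouse macrophages, taken as every gene of the table whose symbol starts with Il and a digit. There were 65 such genes among 28998, namely 40 genes of receptor chains and 25 of cytokines, antagonists, binding proteins and others. The macrophages came from C57 mice, whose bone marrow monocytes had been given GM-CSF for 7 days. There were 3 groups of 3 libraries: WGFT17, treated with that compound for 36 h, JHU083, treated with that drug for 36 h, and Control. WGFT17 is known here only by its code name, and JHU083 releases DON, an antagonist of glutamine. Doses are not given, nor are the treatment and culture time of the Control cells, so a difference in culture time and a drug effect cannot be told apart. Since it is not stated that the libraries of a group are separate cultures or animals, p-values cover only their spread, which may be technical.

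Interleukins are small secreted proteins by which immune cells signal to each other. Most act through paired receptor chains on the surface of the receiving cell. One chain binds a single cytokine and the other, such as the common gamma chain, gp130 or the IL-10 receptor beta chain, is shared between several cytokines, and JAK kinases with STAT factors carry the signal inside. The IL-1 family instead signals through MyD88 and IRAK kinases towards NF-kB, and it is held in check by a secreted receptor antagonist, by decoy receptors and by soluble receptor forms. Macrophages are a main source of IL-1, IL-6, IL-10 and IL-12 after microbial stimulation, and they respond to IL-4, IL-10 and IL-13.

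Values are FPKM, fragments scaled to transcript length and library depth, as deposited. Log2 changes come from edgeR's quasi-likelihood test on the deposited estimated counts, and their standard errors (SE) were derived from its F statistic. A gene was tested where its mean over all 9 libraries was at least 1 FPKM, and called changed at a Benjamini-Hochberg adjusted p under 0.05 over all 11798 genes tested. Of the 65 genes, 24 were tested, 18 for receptor chains and 6 for secreted proteins. The other 41 lay under that mean.

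The libraries held 56624220 to 69112134 estimated counts. About 4 of these may stand for 1 read pair, which is inferred from an excess of multiples of 4 among low counts and is not stated by the submitters. All 12 macrophage markers looked at were present, with summed levels of 12000 to 13400 FPKM in WGFT17, 12300 to 13800 FPKM in JHU083 and 11700 to 12700 FPKM in Control. These sums were mostly Lyz2 and hide changes of single markers. Of the 12, 2 were called higher and 6 lower in WGFT17 against Control, and 1 higher and 3 lower in JHU083 against Control. Mrc1, among those lower in WGFT17, had 55.30 to 64.63 FPKM in WGFT17, 120.39 to 123.27 in JHU083 and 102.50 to 121.80 in Control. Markers of other cells and tissues also moved between the groups, and sums are given in that order of groups. The 10 neutrophil markers summed to 1.28 to 2.44, 9.74 to 12.0 and 38.6 to 47.8 FPKM, with Ly6g at or under 0.07 FPKM. The 7 mast cell and basophil markers summed to 0.84 to 1.03, 3.87 to 4.86 and 9.31 to 11.4 FPKM, mostly Mcpt8 in JHU083 and Control and Mcpt8 with Gata2 in WGFT17, with Fcer1a and Ms4a2 at or under 0.07 FPKM. The 9 dendritic cell markers summed to 10.9 to 11.9, 39.4 to 48.0 and 37.6 to 47.3 FPKM, mostly Itgax, with Flt3 at or under 0.04 FPKM. The 11 stromal and endothelial markers summed to 228 to 238, 863 to 1040 and 1330 to 1420 FPKM. Sums were 8.55 to 11.3, 13.0 to 14.3 and 13.3 to 15.4 FPKM for 10 T and NK cell markers, mostly Cd4. They were 13.5 to 13.8, 17.5 to 21.7 and 32.7 to 39.2 FPKM for 7 B cell markers, of which Ms4a1 and Pax5 stayed at or under 0.03 FPKM. Of these, Ighm rose in that order, at 3.37 to 3.96, 11.78 to 15.07 and 20.66 to 22.08 FPKM. Igkc did not, at 8.12 to 9.20, 2.38 to 3.44 and 7.42 to 13.68 FPKM. The 5 epithelial markers summed to 4.51 to 7.69, 4.76 to 8.99 and 8.87 to 10.6 FPKM, with Epcam under 0.1 FPKM throughout. Krt19 was called lower in both drug groups than in Control, while Krt8 and Krt18 were not called. The 10 liver genes summed to 101 to 227, 73.0 to 238 and 422 to 473 FPKM. JHU083 replicates 1 to 3 stood apart from each other in heart muscle genes (56.0, 0.25 and 86.3 FPKM, against 0.2 to 0.24 in WGFT17 and 66.4 to 75.7 in Control). In photoreceptor genes JHU083 replicate 3 stood with Control (3.08, 3.06 and 9.89 FPKM in JHU083, against 1.78 to 2.26 in WGFT17 and 8.91 to 10.2 in Control). What part these other cells or tissues have in any result below was not tested. In bulk RNA, fewer cells of a type and less RNA per cell cannot be told apart.

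The start regions of the pair of genes with the largest changes, Il1rn and Il1rl1, are shown here so that the results can be set beside their sequence. RefSeq gives each of them separate start sites, and each window runs from 250 bases before a start to 50 bases after it, on the plus strand of GRCm38.p6. Il1rn encodes the IL-1 receptor antagonist, which occupies the IL-1 receptor without signalling, and lies on chromosome 2 (24336853 to 24351494). Il1rl1 encodes ST2, the receptor of IL-33, and lies on chromosome 1 (40429570 to 40465415 in GENCODE M21). Capitals mark letters that match, on either strand, the motif letters of AP-1 (TGANTCA), C/EBP (TTGCNNAA), GATA factors (AGATAA) or PU.1 (GAGGAA).
Il1rn upstream start, chr2:24336610-24336909: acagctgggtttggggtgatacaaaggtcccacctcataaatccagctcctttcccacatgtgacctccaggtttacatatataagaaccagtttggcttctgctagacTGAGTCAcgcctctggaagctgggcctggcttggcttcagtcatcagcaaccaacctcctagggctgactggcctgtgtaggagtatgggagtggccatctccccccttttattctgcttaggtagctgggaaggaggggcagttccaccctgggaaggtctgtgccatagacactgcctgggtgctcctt
Il1rn downstream start, chr2:24345041-24345340: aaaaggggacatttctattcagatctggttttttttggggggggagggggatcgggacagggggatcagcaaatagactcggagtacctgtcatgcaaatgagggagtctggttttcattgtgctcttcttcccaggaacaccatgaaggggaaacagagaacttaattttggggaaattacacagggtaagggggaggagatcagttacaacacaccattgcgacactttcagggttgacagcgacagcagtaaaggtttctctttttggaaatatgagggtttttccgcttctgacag
Il1rl1 upstream start, chr1:40429320-40429619: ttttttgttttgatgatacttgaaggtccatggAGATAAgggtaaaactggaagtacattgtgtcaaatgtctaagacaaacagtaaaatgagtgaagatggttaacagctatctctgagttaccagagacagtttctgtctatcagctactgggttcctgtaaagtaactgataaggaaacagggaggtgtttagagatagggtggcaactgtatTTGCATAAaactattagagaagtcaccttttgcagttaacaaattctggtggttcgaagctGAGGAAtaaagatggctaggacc
Il1rl1 downstream start, chr1:40439379-40439678: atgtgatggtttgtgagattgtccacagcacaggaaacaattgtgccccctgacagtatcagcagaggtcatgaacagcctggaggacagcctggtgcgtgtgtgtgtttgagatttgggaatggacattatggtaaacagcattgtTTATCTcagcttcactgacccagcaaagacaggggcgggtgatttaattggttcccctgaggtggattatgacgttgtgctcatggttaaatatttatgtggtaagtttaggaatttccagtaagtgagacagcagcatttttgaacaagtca
The upstream Il1rn window held 1 AP-1 match and the downstream one held none of the 4 motifs. The upstream Il1rl1 window held a GATA, a C/EBP and a PU.1 match, and the downstream one a GATA match on the minus strand, and no 2 of these matches overlap. Of all 32851 mouse windows of this length, 7.81% held the AP-1 letters, 10.8% C/EBP, 11.2% GATA and 28.3% PU.1. RefSeq windows were found for 19 of the 24 tested genes (27 windows). Among these 27, AP-1 letters were in 3, C/EBP in 7, GATA in 3 and PU.1 in 4. Such a match describes the letters only. Il16, Il18, Il18bp, Il34, Il6ra, Il4ra, Il10ra, Il3ra, Il1rap and Il11ra1 overlap other genes on the opposite strand, and Il16, Il1r1 and Il1rl2 overlap pseudogenes or provisional gene models on their own strand, so the assignment of reads there is less certain.

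The receptor genes made up most of the interleukin family RNA that was measured. Il10rb, whose product is shared by the receptors of IL-10 and related cytokines, had the highest mean, with 52.8 ± 2.55 FPKM in WGFT17, 57.0 ± 5.56 in JHU083 and 51.4 ± 1.11 in Control (SD, n = 3 each). Il4ra, Il10ra, Il2rg and Il6st followed, so the 5 genes with a mean of at least 20 FPKM are all receptor chains. Another 9 genes had means of 5 to 20 FPKM and 10 had means of 1 to 5 FPKM. Neighbours in this order were often within each other's spread, as with Il4ra and Il10ra in JHU083 cells at 40.3 ± 5.26 and 36.7 ± 3.74 FPKM, and with Il13ra1 and Il11ra1 in Control cells at 9.15 ± 1.12 and 8.57 ± 0.658 FPKM. The most abundant transcript of a secreted product depended on the group. It was that of the IL-18 binding protein gene Il18bp in WGFT17 cells, at 5.42 ± 0.226 FPKM, and that of Il1rn in JHU083 and Control cells.

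**Figure D1:**
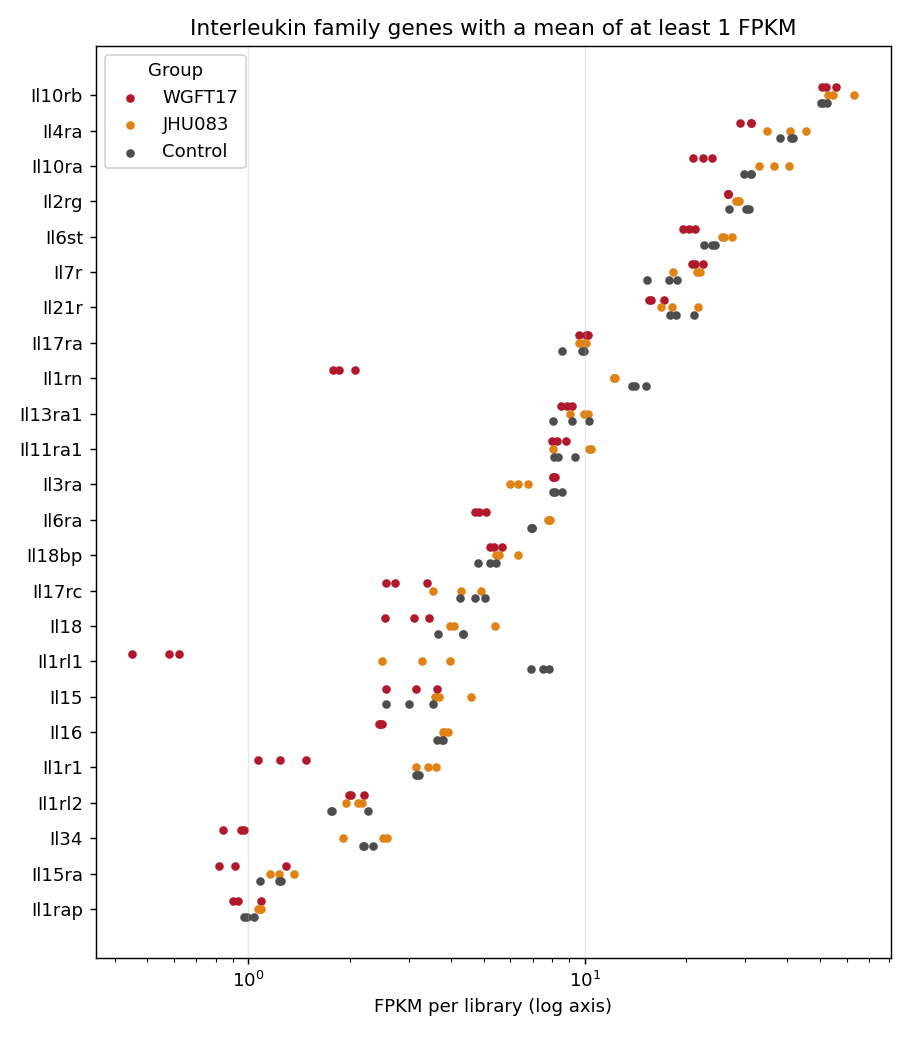
Level of the 24 interleukin family genes with a mean of at least 1 FPKM, ordered by that mean. Each point is 1 library, with FPKM on a log axis and the groups in colour. For Il1rn, Il1rl1, Il1r1 and Il34 the 3 WGFT17 points lie to the left of all others, whereas for Il17ra and Il18bp the groups overlap.

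WGFT17 against Control sets the treated cells beside cells whose treatment and culture time are not given, so its calls are not assigned to the compound. Of the 24 genes, 13 were lower in WGFT17 cells, 0 were higher and 11 did not pass. Over all genes tested, 58.0% were called, 28.0% higher and 30.0% lower. The share called among the 24 is thus near that of all genes and is no result about them. The direction was uneven, with 0 of the 13 calls higher. The filter on the mean of all libraries bears on this count. Il1rl1 and Il34 passed it with WGFT17 means of 0.55 and 0.92 FPKM. Il4 and Il1a, with WGFT17 means of 1.24 and 1.33 FPKM, fell under it at 0.917 and 0.904 FPKM. In a fit without the filter, 3 of the 41 genes under it were called higher and 8 lower. The 24 had a median log2 change of -0.33, beside a median of 0.0 over all genes tested. Without a filter, with DESeq2 and without any 1 library, the number called stayed between 12 and 14.

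JHU083 against Control gave few calls in this family. Of the 24 genes, 3 were lower in JHU083 cells, Il1rl1, Il3ra and Il1rn, 0 were higher and 21 did not pass. Over all genes tested, 24.0% were called, 11.5% higher and 12.5% lower. Both the 24 genes and all genes had a median log2 change of 0.0. In a fit with JHU083 represented by replicate 3 alone, 6 genes passed the threshold, Il21r and Il4ra also lower and Il10rb higher. That fit assumes that the lone library varies like those of WGFT17 and Control, so here and below its values describe 1 library and are not calls for the group. This library is the one that stood with Control in photoreceptor genes.

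WGFT17 against JHU083 sets the drugs against each other at the same 36 h, though the doses are not given. Of the 24 genes, 12 were lower in WGFT17 cells, 1 was higher (Il3ra) and 11 did not pass. Over all genes tested, 44.7% were called, 20.4% higher and 24.4% lower. On the log2 scale, the median change was -0.35 for the 24 and 0.01 for all genes. The filter bears on the direction here as well. The comparisons with Control share their Control libraries, and those with WGFT17 share the WGFT17 libraries, so they do not stand as separate evidence.

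**Figure D2:**
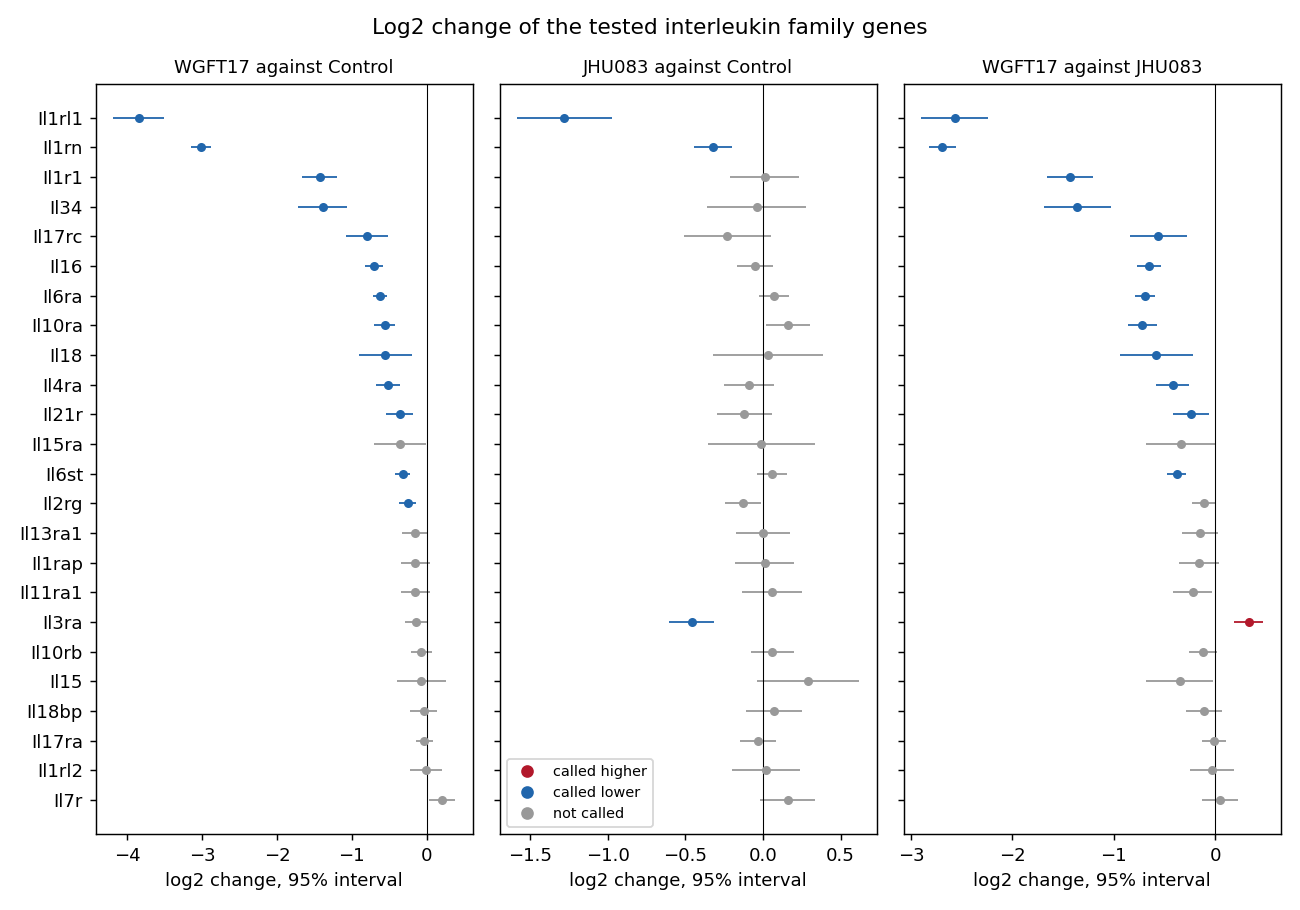
Log2 change of the 24 tested genes in each comparison, ordered by the change of WGFT17 against Control. Points are edgeR estimates and bars 95% normal intervals from the SE, blue for a call lower, red for a call higher and grey for no call, and each panel has its own axis range. Il1rl1 lies at -3.85 in WGFT17 and at -1.28 in JHU083 against Control, while Il1r1 lies at -1.43 and at 0.01.

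Among the IL-1 family ligands and antagonists, the receptor antagonist showed the clearest difference. Il1rn had 1.86, 2.07 and 1.79 FPKM in WGFT17 libraries, 12.22, 12.32 and 12.19 FPKM in JHU083 libraries and 14.08, 15.23 and 13.82 FPKM in Control libraries. All 3 WGFT17 values were far below the others, and the JHU083 values lay below each Control value. Il1rn was 8.1-fold lower in WGFT17 than in Control (log2 change -3.02, SE 0.0688, adjusted p = 9.83e-11) and 6.47-fold lower than in JHU083 (log2 change -2.69, SE 0.0681, adjusted p = 2.56e-10). In JHU083 it was 1.25-fold lower than in Control (log2 change -0.32, SE 0.0626, adjusted p = 0.00541). The gene makes a secreted and intracellular forms from different first exons, and the value pools the 6 transcripts that the table lists for it.

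The agonists that this antagonist opposes, Il1a and Il1b, averaged under 1 FPKM. Il1a had 1.58, 1.59 and 0.81 FPKM in WGFT17 libraries, 0.67, 0.60 and 0.70 FPKM in JHU083 libraries and 0.81, 0.60 and 0.78 FPKM in Control libraries. WGFT17 replicates 1 and 2 were high and replicate 3 equalled the highest Control library. Il1b had 0.49, 0.22 and 0.12 FPKM in WGFT17 libraries, 0.32, 0.42 and 0.37 FPKM in JHU083 libraries and 0.56, 0.77 and 1.00 FPKM in Control libraries, with Control above all others. Per library, the level of Il1rn divided by the sum of Il1a and Il1b was 0.899, 1.14 and 1.92 in WGFT17, 12.3, 12.1 and 11.4 in JHU083 and 10.3, 11.1 and 7.76 in Control. This ratio of FPKM was chosen after the values were seen and is given as a description. The antagonist transcript thus stood at about the level of the agonists in WGFT17 libraries and many times above it in the other 6.

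Il18 encodes an IL-1 family cytokine that caspase-1 activates. It had 2.54, 3.10 and 3.45 FPKM in WGFT17 libraries, 3.97, 4.08 and 5.40 FPKM in JHU083 libraries and 4.34, 4.35 and 3.67 FPKM in Control libraries. The WGFT17 values lay below the others by a narrow margin, with a log2 change of -0.55 against Control (SE 0.183, adjusted p = 0.0227) and -0.58 against JHU083 (SE 0.183, adjusted p = 0.0231). Both calls lie near the threshold. Against Control the adjusted p was above 0.05 without WGFT17 replicate 1 (log2 change -0.44, adjusted p = 0.0851), WGFT17 replicate 2 (-0.57, 0.0502), Control replicate 1 (-0.51, 0.0677) or Control replicate 2 (-0.52, 0.067). Against JHU083 it was above 0.05 without WGFT17 replicate 1 (-0.47, adjusted p = 0.0863), WGFT17 replicate 2 (-0.60, 0.0541) or JHU083 replicate 3 (-0.42, 0.0697). The direction held in each of these fits, and the size changed by less than 1.5 times. Il18 overlaps Bco2 and Tex12 on the opposite strand. For Il18bp, whose product captures IL-18, no change was detected: it had 5.23, 5.36 and 5.67 FPKM in WGFT17 libraries, 5.56, 5.44 and 6.35 in JHU083 libraries and 4.80, 5.24 and 5.45 in Control libraries (adjusted p = 0.736 for WGFT17 and 0.618 for JHU083 against Control).

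The receptors of the IL-1 family differed from one gene to the next. Il1rl1 had 0.45, 0.62 and 0.58 FPKM in WGFT17 libraries, 3.29, 2.50 and 3.97 FPKM in JHU083 libraries and 7.84, 7.5 and 6.91 FPKM in Control libraries. The 3 groups did not overlap, with WGFT17 lowest and Control highest. Il1rl1 was 14.4-fold lower in WGFT17 than in Control (log2 change -3.85, SE 0.176, adjusted p = 1.09e-08), 2.43-fold lower in JHU083 than in Control (log2 change -1.28, SE 0.156, adjusted p = 0.000785) and 5.93-fold lower in WGFT17 than in JHU083 (log2 change -2.57, SE 0.17, adjusted p = 2.79e-07). This was the largest log2 change among the 24 genes in both comparisons with Control. On the scale of log2(FPKM + 1), which understates changes of low genes, the change in WGFT17 against Control was -2.44. The table lists 5 transcripts for the gene. In GENCODE M21, 2 transcripts end their reading frame at 40446702 to 40446704 and another 2 at 40462167 to 40462169, and a short, soluble and a long, membrane-bound ST2 are the known products. The table's row names transcripts with either stop, but the end it prints for the gene, 40448148, lies before the second stop. How far the value covers the long form is therefore uncertain. ST2 is abundant on mast cells and basophils, and the basophil gene Mcpt8 had 0.50, 0.40 and 0.21 FPKM in WGFT17 libraries, 4.11, 3.21 and 3.63 FPKM in JHU083 libraries and 10.61, 8.30 and 9.34 FPKM in Control libraries. Its level thus followed the same order of groups. Of the other markers in that list, Gata2 did not follow it, at 0.37 to 0.55 FPKM in WGFT17, 0.37 to 0.56 in JHU083 and 0.44 to 0.52 in Control, and the remaining 5 stayed at or under 0.23 FPKM. The part of such cells in the result was not tested.

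Il1r1, the signalling receptor of IL-1, had 1.24, 1.48 and 1.07 FPKM in WGFT17 libraries, 3.42, 3.15 and 3.62 FPKM in JHU083 libraries and 3.16, 3.21 and 3.15 FPKM in Control libraries. WGFT17 lay below both other groups, which overlapped. The log2 change was -1.43 against Control (SE 0.117, adjusted p = 1.37e-06) and -1.43 against JHU083 (SE 0.117, adjusted p = 1.69e-06). For JHU083 against Control it was 0.01 (adjusted p = 0.97), with an interval of -0.21 to 0.23. Fibroblasts and endothelial cells carry this receptor, and the stromal and endothelial marker sum was also lowest in WGFT17 libraries. That sum was mostly Col1a1 and Col1a2. It was also lower in JHU083 (863 to 1040 FPKM) than in Control (1330 to 1420 FPKM), where the Il1r1 values overlapped. The endothelial marker Cdh5 had 0.82 to 1.28 FPKM in WGFT17, 2.56 to 3.37 in JHU083 and 2.27 to 2.44 in Control. The part of such cells in the Il1r1 result was not tested.

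Both other tested receptor chains of this family gave no call. Il1rl2, the IL-36 receptor, had 2.02, 1.99 and 2.2 FPKM in WGFT17 libraries, 2.12, 1.95 and 2.18 in JHU083 libraries and 2.26, 1.77 and 1.76 in Control libraries, and its interval of log2 change in WGFT17 against Control was -0.22 to 0.21. Il1rap, the accessory chain that pairs with the receptors of IL-1, IL-33 and IL-36, had 0.90 to 1.09 FPKM in WGFT17, 1.07 to 1.09 in JHU083 and 0.97 to 1.04 in Control. Its log2 change in WGFT17 against Control was -0.15 (adjusted p = 0.223), and it was called lower only where trends on transcript length and GC content were removed (-0.33, adjusted p = 0.0118).

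Both Il1rl1 and Il1r1 belong to a row of 6 receptor genes within 478 kb of chromosome 1 (40074079 to 40551705), in the order Il1r2, Il1r1, Il1rl2, Il1rl1, Il18r1 and Il18rap. The neighbours did not move as a block. Il1rl2 lies between Il1r1 and Il1rl1 and gave no call. Il1r2, the decoy receptor of IL-1, had at most 0.21 FPKM and Il18r1, the binding chain of the IL-18 receptor, at most 0.15 FPKM in any library. Il18rap, the accessory chain of the IL-18 receptor, had 0.11, 0.18 and 0.22 FPKM in WGFT17 libraries, 0.71, 0.64 and 1.00 FPKM in JHU083 libraries and 1.22, 1.08 and 1.02 FPKM in Control libraries. The 3 groups did not overlap for it, though JHU083 replicate 3 lay close to Control replicate 3. In an edgeR fit without the FPKM filter, JHU083 against Control was not called for Il18rap (log2 change -0.59, SE 0.239, adjusted p = 0.205).

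**Figure D3:**
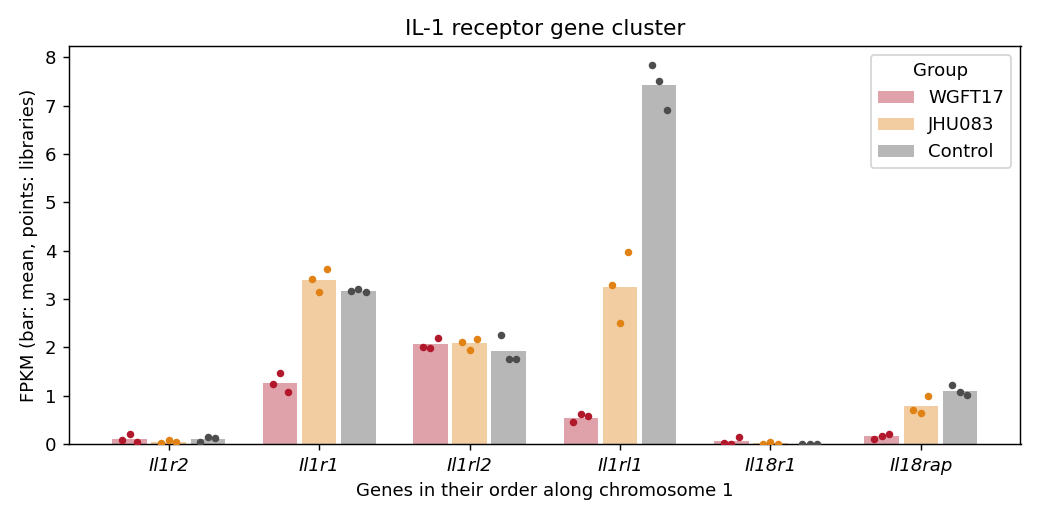
Level of the 6 genes of the IL-1 receptor row in their order along chromosome 1, with spacing not to scale. Bars are group means in FPKM and points are libraries. Il1rl1 and Il18rap follow WGFT17, JHU083, Control from low to high, Il1r1 is low in WGFT17 libraries, and Il1rl2 is level. For Il18rap, JHU083 against Control was not called.

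Receptor chains of IL-4, IL-10 and IL-6 were lower in WGFT17 by smaller factors. Il4ra, which binds IL-4 and with Il13ra1 also IL-13, had 31.15, 31.17 and 28.84 FPKM in WGFT17 libraries, 45.33, 40.72 and 34.83 FPKM in JHU083 libraries and 38.07, 41.51 and 40.89 FPKM in Control libraries. WGFT17 lay below both others, by a log2 change of -0.51 against Control (SE 0.0822, adjusted p = 0.000299) and of -0.42 against JHU083 (SE 0.0821, adjusted p = 0.0015). For JHU083 against Control it was -0.09 (adjusted p = 0.451), and with JHU083 replicate 3 alone -0.29. With that library alone, the change in WGFT17 against JHU083 was -0.22. Its partner Il13ra1 had 8.50 to 9.15 FPKM in WGFT17, 9.03 to 10.24 in JHU083 and 8.03 to 10.26 in Control and gave no call (adjusted p = 0.144 in WGFT17 against Control), though without Control replicate 3 it was called lower (-0.24, adjusted p = 0.0365), as it was with length and GC trends removed (-0.32, adjusted p = 0.00518).

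Il10ra, the chain that binds IL-10, had 23.93, 22.44 and 21.02 FPKM in WGFT17 libraries, 40.47, 36.61 and 32.99 FPKM in JHU083 libraries and 31.12, 29.68 and 31.25 FPKM in Control libraries. WGFT17 was lowest and JHU083 highest, without overlap. On the log2 scale, the change was -0.56 in WGFT17 against Control (SE 0.0734, adjusted p = 6.5e-05) and -0.72 in WGFT17 against JHU083 (SE 0.0735, adjusted p = 1.07e-05). For JHU083 against Control it was 0.16 (adjusted p = 0.127), and it was called higher without JHU083 replicate 3 (0.23, adjusted p = 0.0191). Its partner Il10rb overlapped between WGFT17 and Control at 50.71 to 55.65 FPKM in WGFT17, 52.89 to 63.31 in JHU083 and 50.52 to 52.64 in Control. The log2 change of Il10rb in WGFT17 against Control was -0.07, with an interval of -0.21 to 0.07. The highest JHU083 value is that of replicate 3, and with that library alone the log2 change was 0.21 in JHU083 against Control and -0.28 in WGFT17 against JHU083. It overlaps Gm21970 on the same strand, so its reads are less certain. The ligand gene Il10 had 0.36, 0.34 and 0.37 FPKM in WGFT17 libraries, 0.70, 0.73 and 1.02 in JHU083 libraries and 0.75, 0.82 and 0.40 in Control libraries.

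Il6ra, the binding chain of the IL-6 receptor, had 4.86, 5.08 and 4.72 FPKM in WGFT17 libraries, 7.77, 7.87 and 7.82 FPKM in JHU083 libraries and 6.91, 6.99 and 6.98 FPKM in Control libraries. The libraries of each group lay close together and the groups did not overlap. The log2 change was -0.62 in WGFT17 against Control (SE 0.0497, adjusted p = 1.18e-06) and -0.69 against JHU083 (SE 0.0497, adjusted p = 5.66e-07). Il6st encodes gp130, the signalling chain shared by IL-6, IL-11, LIF and oncostatin M. It had 20.37, 19.62 and 21.32 FPKM in WGFT17 libraries, 27.45, 25.62 and 25.96 FPKM in JHU083 libraries and 23.81, 24.42 and 22.69 FPKM in Control libraries. Again WGFT17 was lowest, by 0.32 on the log2 scale against Control (log2 change -0.32, SE 0.0491, adjusted p = 0.000218) and by a log2 change of -0.38 against JHU083 (SE 0.0491, adjusted p = 7e-05).

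In JHU083 against Control, Il6ra had a log2 change of 0.07 (adjusted p = 0.305) and Il6st of 0.06 (adjusted p = 0.38), and the FPKM libraries of both genes lay above those of Control. These FPKM are relative to a scale on which the median gene also lies higher in the drug groups. On log2(FPKM + 0.1), that median was 0.112 in WGFT17 against Control and 0.093 in JHU083 against Control, and on this scale Il6ra and Il10ra were called higher in JHU083 (0.17 with adjusted p = 0.0349 and 0.25 with adjusted p = 0.0383). Relative to that shift the changes are smaller. Il11ra1, the IL-11 receptor chain, had 7.97 to 8.77 FPKM in WGFT17, 8.04 to 10.44 in JHU083 and 8.08 to 9.32 in Control. It gave no call against Control (adjusted p = 0.206), and without JHU083 replicate 3 it was called lower in WGFT17 than in JHU083 (-0.32, adjusted p = 0.0038). Il11ra1 has a near-identical copy, Il11ra2, and overlaps Galt on the same strand, so its reads are less certain.

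**Figure D4:**
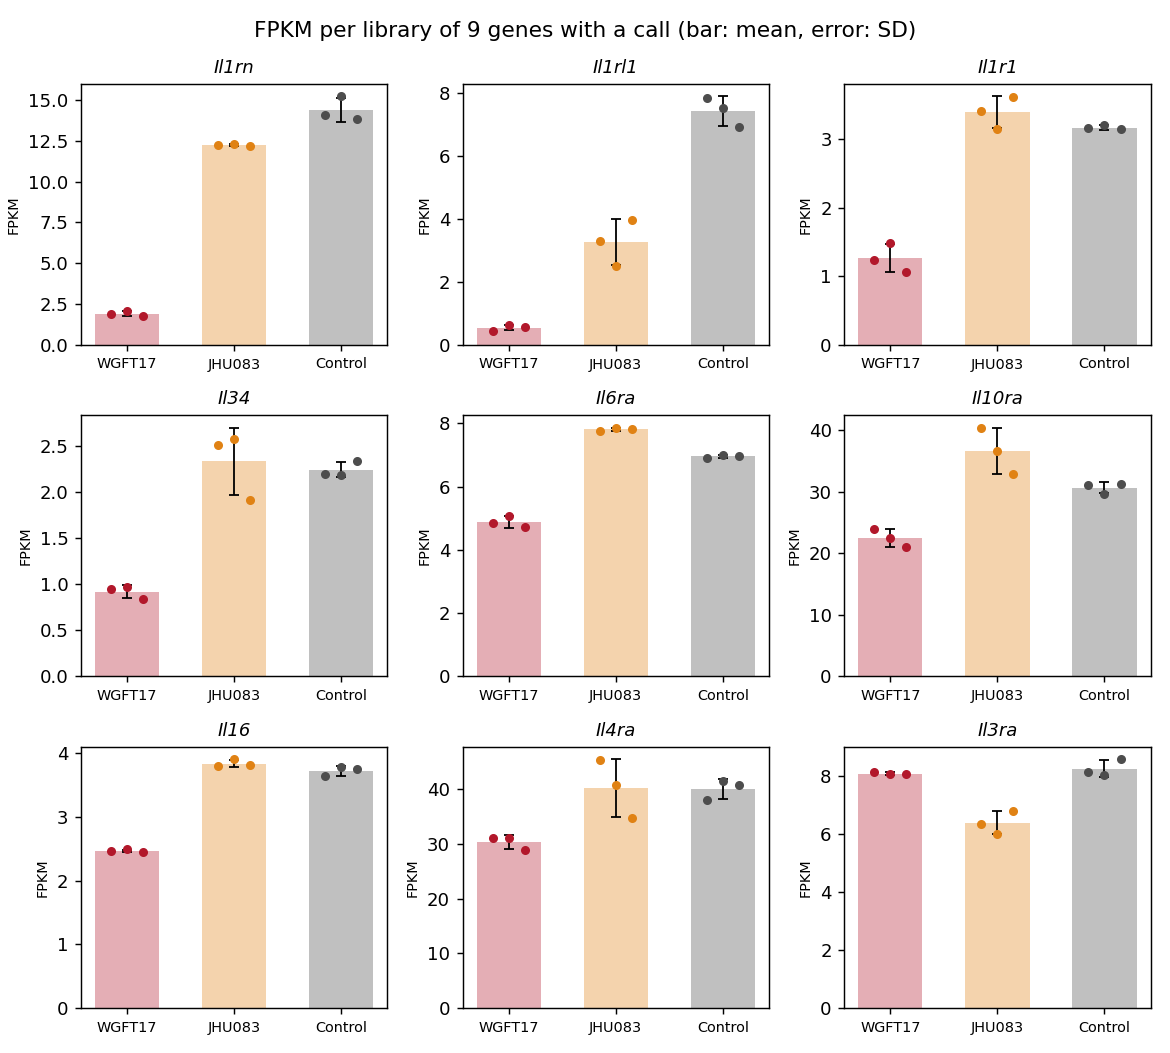
FPKM of 9 interleukin family genes with at least 1 call. Bars are group means, error bars SD (n = 3) and points libraries, with WGFT17 left, JHU083 in the middle and Control right, each panel on its own axis from 0. The 3 WGFT17 libraries lie below all others in every panel except that of Il3ra, where JHU083 is lowest.

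The common gamma chain and its partners formed a receptor group with mostly small differences. Il2rg, the gamma chain itself, had 26.57, 26.58 and 26.71 FPKM in WGFT17 libraries, 28.75, 28.53 and 28.19 FPKM in JHU083 libraries and 30.87, 26.83 and 30.05 FPKM in Control libraries. WGFT17 lay below Control by a log2 change of -0.25 (SE 0.0585, adjusted p = 0.00407), though Control replicate 2 was almost as low. The call was lost on the FPKM scale (-0.13, adjusted p = 0.0609 with a pseudocount of 1). For JHU083 against Control the log2 change was -0.13 (adjusted p = 0.122), which was called without Control replicate 2 (-0.2, adjusted p = 0.0361). Il2rg overlaps Gm20489 on the same strand.

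Il21r, which pairs with the gamma chain to bind IL-21, had 15.50, 17.16 and 15.74 FPKM in WGFT17 libraries, 21.66, 18.20 and 16.82 FPKM in JHU083 libraries and 18.69, 21.09 and 17.98 FPKM in Control libraries. It was lower in WGFT17 than in Control (log2 change -0.36, SE 0.0904, adjusted p = 0.00523). Against JHU083, where the groups overlap, the log2 change was -0.24 (SE 0.0904, adjusted p = 0.0492). This lies close to the threshold, and the adjusted p passed 0.05 without WGFT17 replicate 1 (log2 change -0.21, adjusted p = 0.147), WGFT17 replicate 3 (-0.22, 0.139), JHU083 replicate 2 (-0.27, 0.0585), Control replicate 1 (-0.24, 0.0658) or Control replicate 3 (-0.24, 0.0574), with changes of about the same size. Without JHU083 replicate 1 the change was smaller (-0.13, adjusted p = 0.204). With JHU083 replicate 3 alone, the log2 change of Il21r was -0.28 in JHU083 against Control and -0.08 in WGFT17 against JHU083.

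Il7r, the chain for IL-7 and TSLP, went the other way in its values. It had 21.33, 22.50 and 20.77 FPKM in WGFT17 libraries, 18.27, 22.06 and 21.62 FPKM in JHU083 libraries and 18.79, 15.33 and 17.77 FPKM in Control libraries. WGFT17 lay above Control without overlap, and the log2 change of 0.21 was not called (SE 0.0897, adjusted p = 0.0694). It was called without JHU083 replicate 1 (adjusted p = 0.0364) and without Control replicate 1 (0.27, adjusted p = 0.0401), with DESeq2 (adjusted p = 0.0436) and in the FPKM fits. It was smaller without Control replicate 2 (0.12, adjusted p = 0.261) and with length and GC trends removed (0.04). Il15ra, which presents IL-15 to neighbouring cells, had 0.91, 0.82 and 1.29 FPKM in WGFT17 libraries, 1.23, 1.16 and 1.37 in JHU083 libraries and 1.25, 1.08 and 1.23 in Control libraries. WGFT17 replicate 3 stood above its group, and without it Il15ra was called lower in WGFT17 than in Control (-0.56, adjusted p = 0.0147) and than in JHU083 (-0.55, adjusted p = 0.0211). Il15 itself, a cytokine that sustains NK cells and memory T cells, had 3.15, 3.64 and 2.56 FPKM in WGFT17 libraries, 3.69, 3.58 and 4.58 in JHU083 libraries and 3.54, 3.00 and 2.56 in Control libraries, and gave no call (adjusted p = 0.751 for WGFT17 and 0.24 for JHU083 against Control).

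Il3ra, the binding chain of the IL-3 receptor, was the 1 gene lower in JHU083 than in both other groups. It had 8.14, 8.05 and 8.05 FPKM in WGFT17 libraries, 6.35, 6.00 and 6.80 FPKM in JHU083 libraries and 8.14, 8.02 and 8.58 FPKM in Control libraries. JHU083 lay below both groups, and these overlapped. The log2 change was -0.46 in JHU083 against Control (SE 0.0737, adjusted p = 0.00219), 0.33 in WGFT17 against JHU083 (SE 0.0737, adjusted p = 0.00394) and -0.14 in WGFT17 against Control (adjusted p = 0.127, interval -0.28 to 0.0). With JHU083 replicate 3 alone, the change in WGFT17 against JHU083 was 0.23.

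The receptors of IL-17 were unlike each other. Il17rc had 2.73, 2.56 and 3.40 FPKM in WGFT17 libraries, 4.91, 4.29 and 3.53 FPKM in JHU083 libraries and 4.27, 4.72 and 5.04 FPKM in Control libraries. WGFT17 was lowest, with a log2 change of -0.80 against Control (SE 0.144, adjusted p = 0.00068) and of -0.56 against JHU083 (SE 0.144, adjusted p = 0.00788). JHU083 replicate 3 had the lowest value of its group, and with that library alone the change against JHU083 was -0.30, while without JHU083 replicate 1 or 2 it stayed called (-0.45 and -0.55). Its partner Il17ra had 9.58 to 10.19 FPKM in WGFT17, 9.58 to 10.11 in JHU083 and 8.57 to 9.94 in Control, and the log2 change in WGFT17 against Control was -0.03, with an interval of -0.15 to 0.08.

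The transcripts of Il34 and Il16, which encode secreted proteins, were lower in WGFT17 cells. Il34 encodes a ligand of the CSF1 receptor, which supports macrophage survival. It had 0.95, 0.97 and 0.84 FPKM in WGFT17 libraries, 2.51, 2.58 and 1.91 FPKM in JHU083 libraries and 2.2, 2.19 and 2.34 FPKM in Control libraries. WGFT17 lay below both others, with a log2 change of -1.39 against Control (2.63-fold lower, SE 0.169, adjusted p = 3.38e-05) and of -1.36 against JHU083 (SE 0.169, adjusted p = 5.24e-05). Il16 encodes a chemoattractant that binds CD4. It had 2.46, 2.49 and 2.45 FPKM in WGFT17 libraries, 3.80, 3.91 and 3.81 FPKM in JHU083 libraries and 3.64, 3.78 and 3.75 FPKM in Control libraries. The spread within each group was small, and WGFT17 was lower by a log2 change of -0.70 against Control (SE 0.0605, adjusted p = 2.1e-06) and of -0.65 against JHU083 (SE 0.0605, adjusted p = 4.85e-06). In JHU083 against Control neither was called, with intervals of the log2 change of -0.36 to 0.28 for Il34 and of -0.17 to 0.07 for Il16.

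Partner chains with other names, and the signalling genes behind these receptors, were counted for context. Their counts stand beside 58.0% of all genes tested called in WGFT17 against Control, 24.0% in JHU083 against Control and 44.7% in WGFT17 against JHU083, and nothing particular to these lists is read from them. Of 6 tested partner chains, 3 were higher and 2 lower in WGFT17 than in Control, 1 higher and 0 lower in JHU083 than in Control, and 3 higher and 2 lower in WGFT17 than in JHU083. Lifr, which joins gp130 in the LIF receptor, had 0.553 ± 0.0551 FPKM in WGFT17 and 2.36 ± 0.225 FPKM in Control (SD, n = 3 each, log2 change -2.2, adjusted p = 2.93e-08). Csf2rb, the beta chain that signals for IL-3, IL-5 and GM-CSF, had 45.3 ± 2.95 FPKM in WGFT17 and 26.6 ± 2.1 FPKM in Control (log2 change 0.66, adjusted p = 2.72e-05). Csf2rb2, the mouse beta chain specific to IL-3, had 63.4 ± 2.8 FPKM in WGFT17, 47.1 ± 2.86 in JHU083 and 37.6 ± 2.7 in Control (log2 change 0.64 in WGFT17 and 0.23 in JHU083, adjusted p = 1.17e-05 and 0.0337). Csf2rb and Csf2rb2 are near-identical copies, so the split of reads between them is uncertain. Crlf2, the TSLP receptor chain that pairs with Il7r, had 57.5 ± 0.394 FPKM in WGFT17 and 33.7 ± 1.12 FPKM in Control (log2 change 0.66, adjusted p = 0.000831).

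Of 15 genes of IL-1 processing and signalling, 7 were higher and 2 lower in WGFT17 than in Control, 1 higher and 0 lower in JHU083 than in Control, and 6 higher and 1 lower in WGFT17 than in JHU083. Their median log2 change in WGFT17 against Control was -0.02. Casp1, the protease that activates IL-1 beta and IL-18, had 15.6 ± 1.19 FPKM in WGFT17, 12.2 ± 1.23 in JHU083 and 8.97 ± 0.174 in Control (log2 change 0.69 in WGFT17 and 0.35 in JHU083, adjusted p = 4.3e-05 and 0.0148). Irak2, Irak1 and the adaptor Myd88 were higher in WGFT17 than in Control too (log2 changes 0.61, 0.27 and 0.41). In WGFT17 against Control, these 4 have the smallest adjusted p of the list, and the 2 genes called lower are not named. The share called in the list was near that of all genes.

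Of 21 JAK-STAT genes, 8 were higher and 9 lower in WGFT17 than in Control, 6 higher and 0 lower in JHU083 than in Control, and 5 higher and 11 lower in WGFT17 than in JHU083. Stat2, a factor of the interferon response, had a log2 change of 0.87 in WGFT17 and of 0.57 in JHU083 against Control. Socs3, the feedback inhibitor that binds gp130, had 7.84 ± 0.841 FPKM in WGFT17 and 15.7 ± 1.35 FPKM in Control (log2 change -1.11, adjusted p = 3.13e-06). Of 3 genes of IL-17 receptor signalling, 1 was higher and 1 lower in both comparisons with Control, and 1 higher and 2 lower in WGFT17 than in JHU083. Traf4, which restrains IL-17 receptor signalling, had 2.83 ± 0.311 FPKM in WGFT17, 3.86 ± 0.227 in JHU083 and 6.19 ± 0.186 in Control (log2 change -1.24 in WGFT17 and -0.77 in JHU083, adjusted p = 9.66e-07 and 0.000785).

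The remaining 41 genes averaged under 1 FPKM, 21 of them 0.1 to 1 FPKM and 20 under 0.1 FPKM. Of these 41, 7 reached 1 FPKM in some library, namely Il4, Il1a, Il12rb2, Il18rap, Il10, Il2rb and Il1b, and 25 of the 65 never exceeded 0.5 FPKM. The classic cytokines of activated macrophages were among the low genes. Il6 had 0.47, 0.29 and 0.60 FPKM in WGFT17 libraries, 0.61, 0.65 and 0.44 in JHU083 libraries and 0.34, 0.13 and 0.35 in Control libraries. Il12b, the p40 subunit of IL-12 and IL-23, was listed at 0 in 8 libraries and at 0.03 FPKM in JHU083 replicate 2. Il12a was listed at 0 in 8 libraries and at 0.11 FPKM in JHU083 replicate 1. Il23a reached 0.05 FPKM in WGFT17, 0.19 in JHU083 and 0.12 in Control, and Il33, the ligand of ST2, reached 0.21, 0.16 and 0.15 FPKM. At 0 in at least 6 libraries were 9 of the 65 genes.

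**Figure D5:**
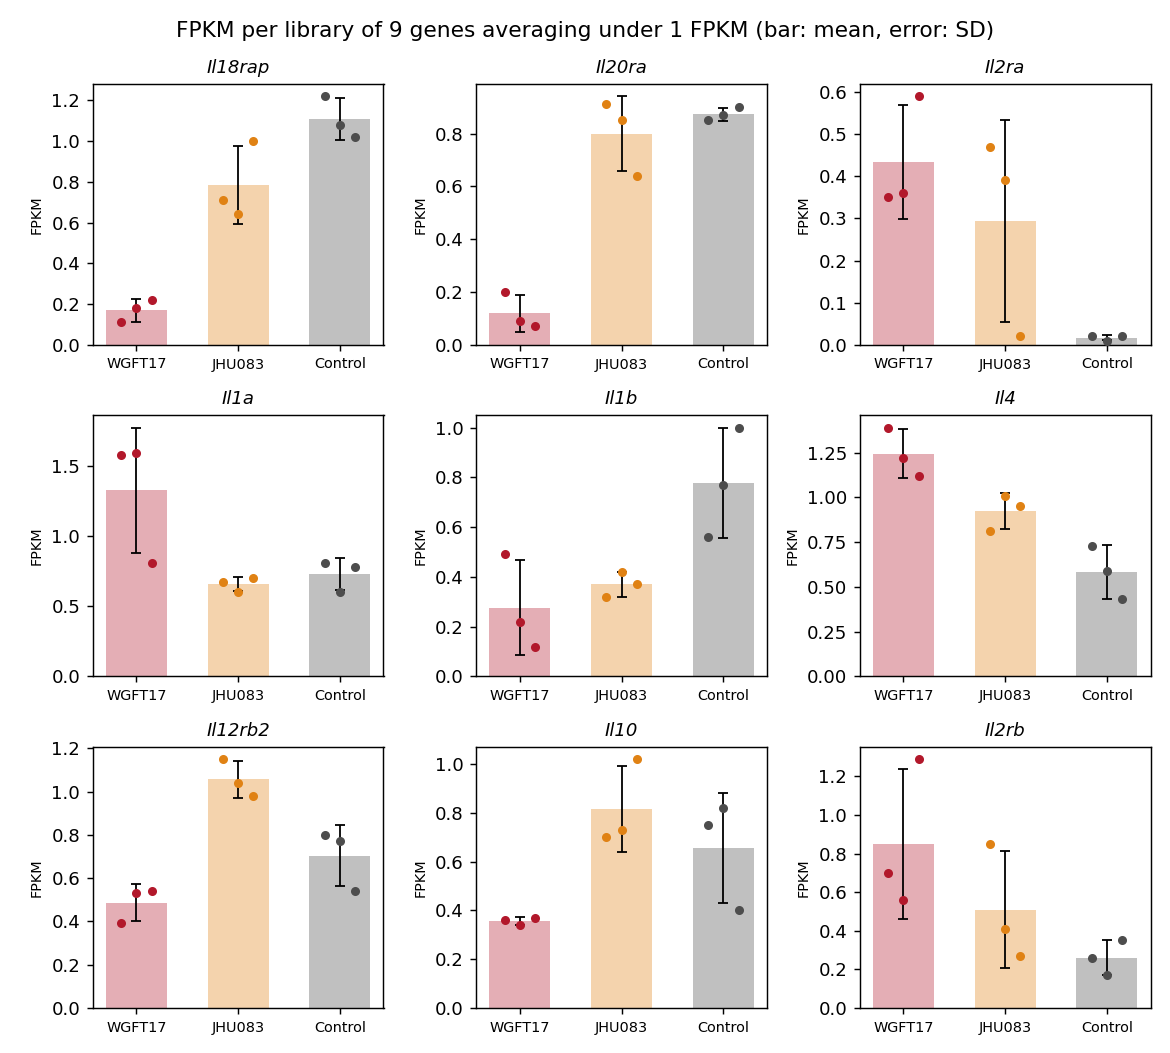
FPKM of 9 interleukin family genes that averaged under 1 FPKM. Bars are group means, error bars SD (n = 3) and points libraries, with WGFT17 left, JHU083 in the middle and Control right, each panel on its own axis from 0. Il18rap and Il20ra are lowest in WGFT17 libraries, and the JHU083 bar of Il2ra joins libraries at 0.47, 0.39 and 0.02 FPKM.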

How the data were processed

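RNA was measured in 9 libraries, 3 per group, from poly(A) RNA read as pairs of 150 bases, per the labels' protocols. Tools named in the submitters' processing notes, with no role given, are StringTie 2.1.6, edgeR, HISAT2 2.2.1, DESeq2 and cutadapt 1.9, and the build named is mm9. Coordinates in the table are nonetheless those of GRCm38 (equal to GENCODE M21 for 55 of the 65 genes), and GENCODE M21 positions are given. Per the file headers, the table made by the authors holds FPKM and a count (called estimated count here) per gene and library. Deposited FPKM are scaled to length and depth, and the deposited counts are whole numbers that needed no rounding. Whole multiples of 4 are in excess among low counts (8030 values at 4, 4287 at 3 and 2712 at 5). The number of columns left unmatched to a sample was 0. Whether counting used strand is not given in the sources used here, so genes that overlap on opposite strands are less certain.

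The test was edgeR 4.0.16 (R 4.3.3) quasi-likelihood with TMM factors on the estimated counts, with all 9 libraries in 1 fit, restricted to means of at least 1 FPKM, and Benjamini-Hochberg adjustment within each comparison. Means and SDs are of deposited FPKM, and intervals of log2 changes are 95% normal intervals from the SE. The SE is the absolute log2 change divided by the square root of the test's F statistic. Normal intervals are narrower than the quasi-likelihood p-values imply. For Il15 in WGFT17 against JHU083, for example, the interval was -0.68 to -0.02 though the unadjusted quasi-likelihood p was 0.0603. Alternatives were no filter, a mean FPKM of at least 5, DESeq2 1.42.0, library totals alone, counts divided by 4, limma 3.58.1 on log2(FPKM + 1) and log2(FPKM + 0.1), fits of the groups compared only, the replicate number as a block, leaving out each library, JHU083 replicate 3 alone and, added after the data were seen, an offset that takes out how each library depends on transcript length and GC content (loess, span 0.3). The genes, lists and tests were chosen with earlier results of these data known. Named are each gene with a mean of at least 1 FPKM, lower ones that reach 1 FPKM in a library or encode textbook macrophage cytokines, and at most 4 called genes per list and comparison; Il18r1, Il1r2 and other low genes were named after their values were seen.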

Additional observations from a re-analysis of the deposited data

How the results depend on the processing

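The number of genes called was 13, 3 and 13 in WGFT17 against Control, JHU083 against Control and WGFT17 against JHU083. Leaving out 1 library at a time gave 12 to 14, 3 to 4 and 11 to 13. With a mean FPKM of at least 5, where 14 of the genes were tested, 7 were called in WGFT17 against Control and 7 in WGFT17 against JHU083, since fewer genes were tested. In JHU083 against Control, 5 were called with limma on log2(FPKM + 1), 5 on log2(FPKM + 0.1) and 6 with JHU083 replicate 3 alone, which is assumed to vary like the other groups; the cause was not tested. With the replicate number as a block the counts were 13, 3 and 13. Correlations of same-numbered libraries in their deviations from the group means ran from -0.0338 to 0.161, and not every library correlated best with its own number, so the numbers were not taken to pair the libraries. Over single genes, 542 of 567 alternative fits of a called change kept the call and 25 lost it, and none turned its direction. Of 843 fits of a change not called, 820 stayed so and 23 became called. Il18 and, in WGFT17 against JHU083, Il21r account for most of the lost calls, and both also lost them without a filter (adjusted p = 0.0599 for Il18 in WGFT17 against Control). On log2(FPKM + 1), which understates changes of low genes, the log2 changes of Il1r1, Il34, Il16, Il18 and Il6st in WGFT17 against Control were -0.89, -0.76, -0.45, -0.35 and -0.20, that of Il1rn in JHU083 against Control was -0.21, and those of Il1rl1 and Il34 in WGFT17 against JHU083 were -1.44 and -0.79, all still called. DESeq2 gave 10 of all genes no adjusted p. For genes under 1 FPKM, few read pairs limit the precision.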

Other observations

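In an edgeR quasi-likelihood fit without the FPKM filter, over all 28998 genes, some of the 41 genes that averaged under 1 FPKM also passed. In WGFT17 against Control 3 were higher and 8 lower, beside 27.3% called of all genes. In JHU083 against Control 1 was higher and 0 lower, beside 6.52%, and in WGFT17 against JHU083 2 were higher and 7 lower, beside 20.4%. These genes rest on few read pairs. Il20ra, a chain of the receptors of IL-19, IL-20 and IL-24, had 0.20, 0.09 and 0.07 FPKM in WGFT17 libraries, 0.91, 0.85 and 0.64 FPKM in JHU083 libraries and 0.85, 0.87 and 0.90 FPKM in Control libraries, a log2 change of -2.89 in WGFT17 against Control (adjusted p = 0.000155). Il18rap, described above, had a log2 change of -2.76 there (adjusted p = 2.36e-05). Il27, a subunit of IL-27, had 0.13, 0.22 and 0.08 FPKM in WGFT17 libraries, 0.60, 0.33 and 0.75 FPKM in JHU083 libraries and 0.63, 0.59 and 0.50 FPKM in Control libraries (log2 change -2.02, adjusted p = 0.011). Il1b fell by 1.55 on the log2 scale in WGFT17 against Control (adjusted p = 0.0277), and Il1a rose by 1.03 in WGFT17 against JHU083 (adjusted p = 0.0282). Il10 and Il12rb2 were lower in WGFT17 than in JHU083 (log2 changes -1.16 and -1.10, adjusted p = 0.0356 and 0.00275). Il4, the cytokine of type 2 responses, had 1.39, 1.22 and 1.12 FPKM in WGFT17 libraries, 0.81, 1.01 and 0.95 FPKM in JHU083 libraries and 0.73, 0.59 and 0.43 FPKM in Control libraries (log2 change 1.00 in WGFT17 against Control, adjusted p = 0.0163).

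Both chains that form the IL-2 receptor with the gamma chain, Il2ra and Il2rb, stood out among the low genes. Il2ra had 148, 153 and 239 estimated counts in WGFT17 libraries, 173, 153 and 9 in JHU083 libraries and 7, 4 and 8 in Control libraries. The low JHU083 library was replicate 3, so the JHU083 libraries fall on both sides. The log2 change was 4.72 in WGFT17 against Control (adjusted p = 0.00262) and 4.12 in JHU083 against Control (adjusted p = 0.025), where the groups overlap. Il2rb had 0.70, 0.56 and 1.29 FPKM in WGFT17 libraries, 0.85, 0.41 and 0.27 FPKM in JHU083 libraries and 0.26, 0.17 and 0.35 FPKM in Control libraries (log2 change 1.62 in WGFT17 against Control, adjusted p = 0.0243). Lck, a kinase of T cells, had 0.87, 0.77 and 1.43 FPKM in WGFT17 libraries, 0.58, 0.33 and 0.31 FPKM in JHU083 libraries and 0.13, 0.19 and 0.28 FPKM in Control libraries. The T cell receptor gene Trac had 0.70, 0.28 and 1.5 FPKM in WGFT17 libraries, 0.38, 0.64 and 0.84 FPKM in JHU083 libraries and 0.86, 0.82 and 0.92 FPKM in Control libraries. Cd8a of cytotoxic T cells had 0.26, 0.23 and 0.71 FPKM in WGFT17, 0.14, 0.19 and 0.03 in JHU083 and at most 0.07 in Control. Cd3g, a chain of the T cell receptor complex, had 0.14, 0.19 and 0.37 FPKM in WGFT17. It had 0.19, 0.05 and 0.02 FPKM in JHU083 and at most 0.07 in Control. Cd3d had 0.08, 0.03 and 0.53 FPKM in WGFT17, and Cd3e had 0.09, 0.00 and 0.33. In these genes, as in Il2ra, Il2rb, Lck, Trac, Gata3 and Gzma, WGFT17 replicate 3 had the highest value. In Cd4 and Klrb1c it had the lowest. Cd4 went the other way, with 6.05 to 7.13 FPKM in WGFT17, 11.49 to 12.66 in JHU083 and 11.67 to 14.05 in Control. It was the only one of the 10 markers with a mean of at least 1 FPKM. The markers of this list thus did not all move together. The part of such cells in the values of Il2ra and Il2rb was not tested.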
